A study of Mus musculus with 10 samples.

Results

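The oxidative phosphorylation subunit genes are the nuclear genes that encode the structural subunits of the 4 respiratory chain complexes and of the ATP synthase. They were chosen by symbol from the RefSeq table of protein-coding mouse genes on autosomes and X, as symbols that begin with Nduf followed by a, b, c, s or v and a number, the symbols Sdha to Sdhd, and symbols that begin with Uqcr, Cox4 to Cox8 or Atp5. This gave 87 of 21631 genes, of which 40 belong to complex I, 4 to complex II, 8 to complex III, 18 to complex IV and 17 to complex V. Open chromatin near these genes was read from ATAC-seq peak lists of 10 libraries, an assay in which a transposase cuts and tags accessible DNA. The libraries came from frozen liver tumours of FVB mice that carried LAP-tta, a tetracycline-controlled activator driven by a liver promoter, and TRE-MYC, a MYC transgene that the activator switches on once doxycycline is withdrawn. Tumours were taken at death, at ages given as approximate. WT tumours (n = 4, 55 days) carried Arid1aflfl, the floxed alleles, and no Cre. Het tumours (n = 3, 70 days) carried Arid1afl/+ and Alb-cre, a Cre driven by the albumin promoter, and Homo tumours (n = 3, 100 days) carried Arid1afl/fl and Alb-cre. All groups shared LAP-tta, TRE-MYC and at least 1 floxed allele. Age rose with the number of alleles exposed to Cre, and Cre was present in Het and Homo tumours but in no WT tumour, so genotype, age and Cre cannot be told apart. Alb-cre acts in hepatocytes, so other cells of these tumours would keep Arid1a, which encodes a subunit of the SWI/SNF chromatin remodelling complex. The labels do not say that replicates are separate mice, so the p-values reflect the spread among libraries, which may be technical.

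Oxidative phosphorylation passes electrons from NADH through complex I, or from succinate through complex II, to ubiquinone, then through complex III and cytochrome c to complex IV, which reduces oxygen. Complexes I, III and IV pump protons out of the mitochondrial matrix, and complex V, the ATP synthase, makes ATP as the protons flow back. Hepatocytes are rich in mitochondria and depend on the pathway for gluconeogenesis and urea synthesis. The nuclear subunit genes lie scattered over the genome, and many have start sites with recognition letters for NRF1, the GABP factors of the ETS family, YY1 or Sp1.

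A gene was scored as having a gene-end peak when a deposited peak lay within 1000 bp of either end of the gene. The lists differed in size and depth before any gene was considered. They held 1748 (Homo 2) to 9587 (Homo 3) regions. Depth, as background tags per 200 bp recovered from the deposited values, ranged from 0.464 (Homo 2) to 1.75 (WT 1). Each Het library was shallower (0.655 to 0.738) than each WT library (0.985 to 1.75). Homo 3 stood apart from the other Homo libraries, with 9587 regions against 3863 and 1748 and a depth of 1.61 against 0.914 and 0.464, and results that rest on it are given with and without it. No row was shared between any pair of lists. Peaks cannot show whether Arid1a was deleted, and the labels were taken as given. Of 10 hepatocyte marker genes, 5, 6, 1 and 2 had a gene-end peak in WT 1 to WT 4, 1, 1 and 0 in Het 1 to Het 3, and 1, 0 and 6 in Homo 1 to Homo 3. Hnf4a, Cps1 and Serpina1a had none in any library, and Alb had one in 1 WT and 1 Homo library, so the labelled tissue rests on few of its markers here. Endothelial, stellate and lymphocyte markers had no gene-end peak in any library. Of the remaining lists, 1 of 6 macrophage markers had a peak in Homo 3 and 1 of 4 cholangiocyte markers had one in WT 3 and in WT 4. The marker counts were highest in WT 1, WT 2 and Homo 3, and their part in the results below was not tested. In these bulk tumours fewer cells of a type and less open DNA per cell cannot be told apart.

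Most subunit genes had open chromatin at a gene end in WT tumours. The number of the 87 genes with a gene-end peak was 64 in WT 1, 54 in WT 2, 44 in WT 3 and 55 in WT 4. It was 42, 31 and 19 in Het 1 to Het 3, and 22, 8 and 66 in Homo 1 to Homo 3. Every Het library lay below every WT library, whereas Homo 3 lay above all WT libraries and Homo 1 and Homo 2 lay below them. By the share of all 21631 genes with a gene-end peak the libraries stood in the same order. That share was 28.0 to 35.8% in WT, 10.5 to 24.1% in Het, and 15.9, 6.79 and 37.0% in Homo 1 to Homo 3. As a share of the set, WT libraries had a mean of 62.4% ± 9.40 (SD, n = 4), Het libraries 35.2% ± 13.2 (SD, n = 3) and Homo libraries 36.8% ± 34.8 (SD, n = 3). Over all 21631 genes the shares were 32.6% ± 3.33, 18.2% ± 6.99 and 19.9% ± 15.5, so the share was larger for subunit genes in each of the 10 libraries. The log2 ratio of the share of subunit genes to that of all other genes was 0.95 ± 0.08 in WT, 0.998 ± 0.12 in Het and 0.76 ± 0.27 in Homo, with 0.70, 0.53 and 1.05 in the 3 Homo libraries. The WT values ran from 0.87 to 1.06, so Homo 3 lay inside the WT range and Homo 1 and Homo 2 lay below it.

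**Figure D1:**
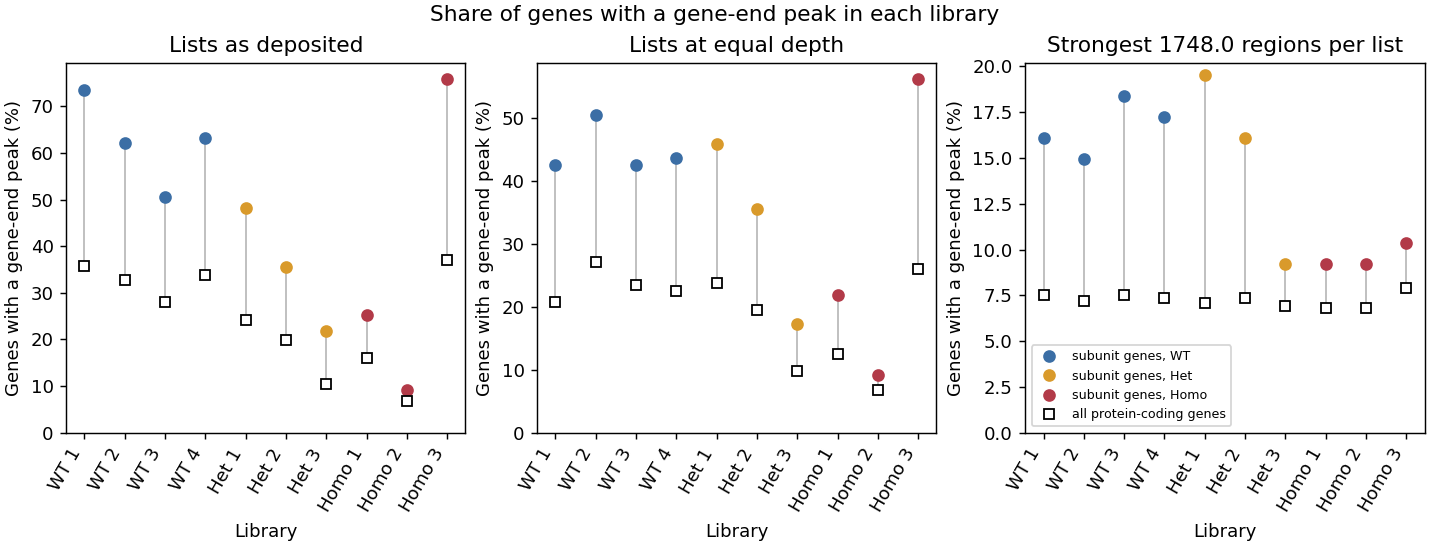
Share of genes with a gene-end peak (%) in each library, with 1 filled point for the 87 subunit genes, coloured by group, and 1 open square for all 21631 protein-coding genes. The left plot uses the deposited lists, the middle plot the lists scaled to the depth of Homo 2 and the right plot the 1748 strongest regions of each list, where the Homo points lie between 9.20 and 10.3% and the WT points between 14.9 and 18.4%.

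Counted over libraries, 71 subunit genes (81.6%) had a gene-end peak in at least 1 library, compared with 42.6% of all genes. In every WT library 38 subunit genes (43.7%) had one, compared with 23.4% of all genes. The share called in every Het library was 16.1% (14 genes) against 7.09%, and in every Homo library 6.90% (6 genes) against 4.43%. In exactly 9 libraries 10 subunit genes (11.5%) were called, against 4.42% of all genes. In all 10 libraries 2 subunit genes (2.30%) were called, against 2.27% of all genes. The last count rests on 2 genes and is limited by Homo 2, where 8 subunit genes had a peak. No conclusion about the set is drawn from it.

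**Figure D2:**
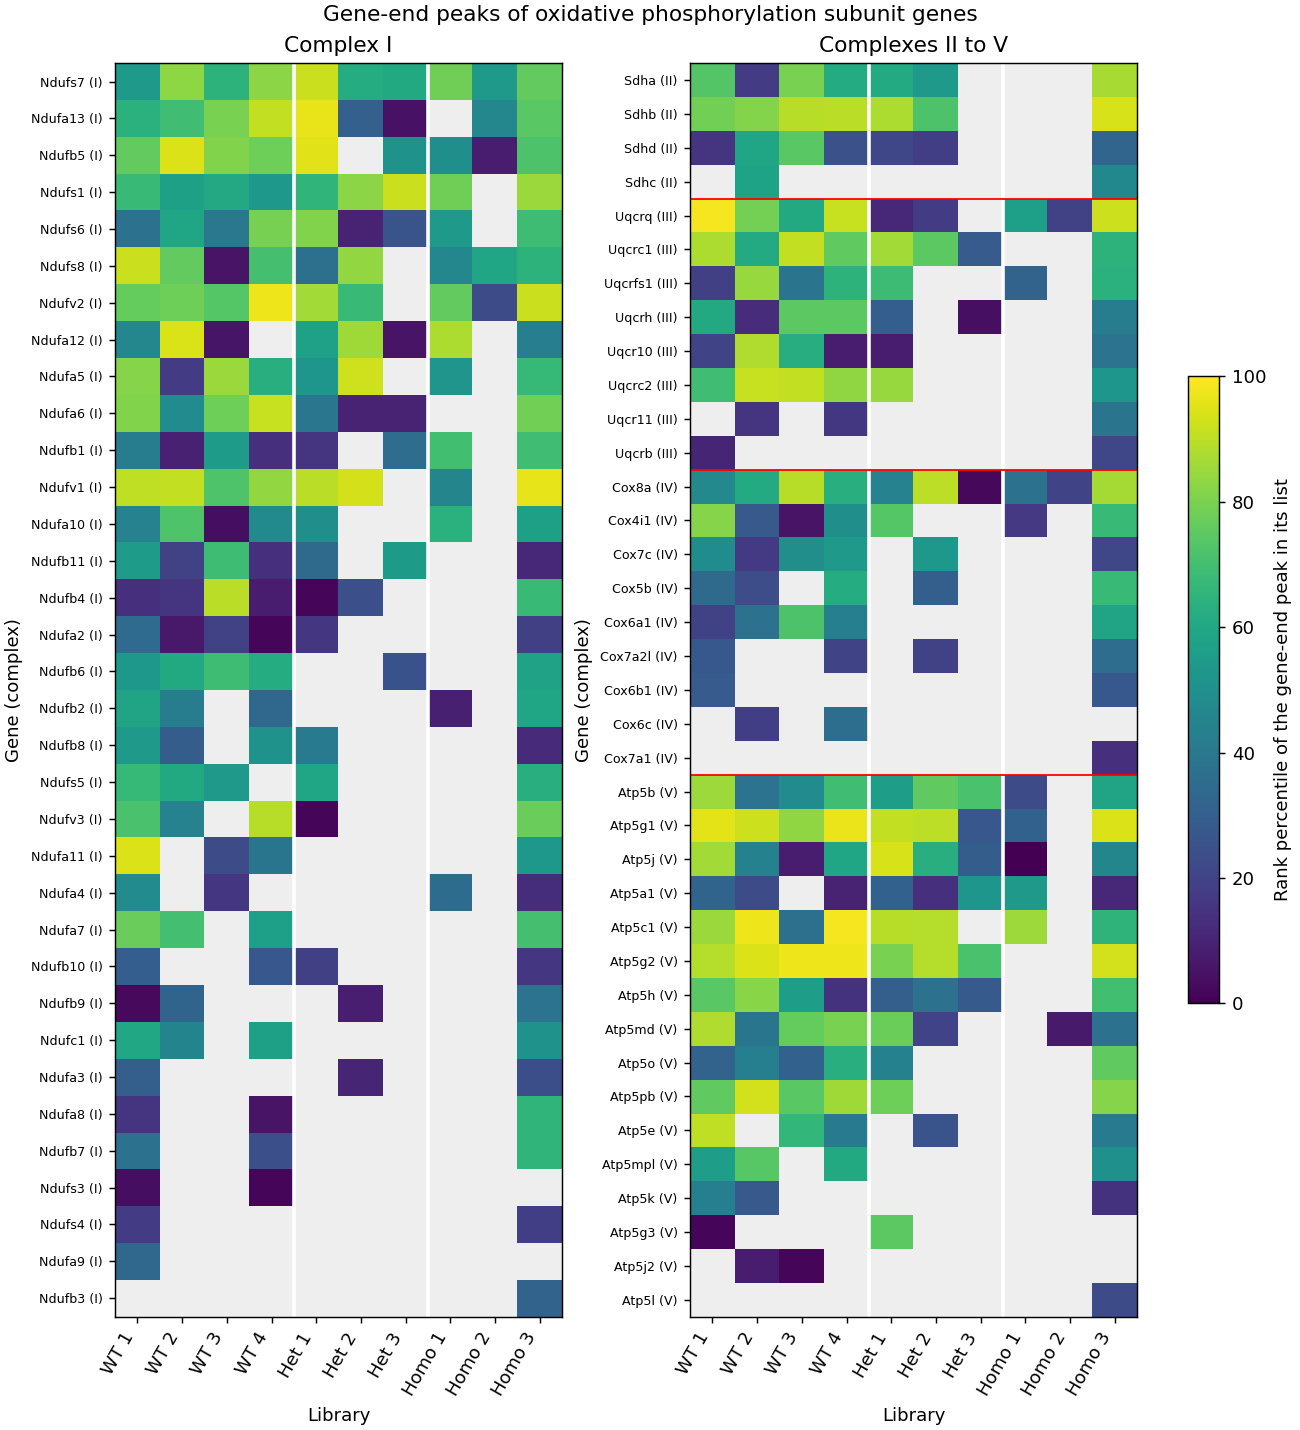
Each row is 1 of the 71 subunit genes with a gene-end peak in some library, with its complex in brackets, each column 1 library, and colour gives the rank percentile of the gene's strongest gene-end peak in its list by the deposited −log10 p, with 100 the strongest and grey where no peak was called. Genes are sorted within a complex by the number of libraries, and the columns of WT 1 and Homo 3 hold the most coloured cells (64 and 66) and that of Homo 2 the fewest (8).

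Complex I oxidises NADH and is the largest of the 5 complexes. Of its 40 genes, 33, 24, 20 and 26 had a gene-end peak in WT 1 to WT 4. In Het 1 to Het 3 the numbers were 20, 13 and 10, and in Homo 1 to Homo 3 they were 13, 5 and 32. The Het range touched the WT range only at 20 genes. Homo 3 lay inside the WT range, and Homo 1 and Homo 2 lay below it. Much the same held for all genes, so this is not particular to complex I. Their share was 28.0 to 35.8% in WT, 10.5 to 24.1% in Het, and 15.9, 6.79 and 37.0% in Homo 1 to Homo 3. Ndufs7, an iron-sulfur subunit next to the ubiquinone site, was called at a gene end in each of the 10 libraries. Its deposited fold was 6.28, 7.63, 6.37 and 7.25 in WT 1 to WT 4, 8.50, 6.67 and 6.02 in Het 1 to Het 3, and 6.99, 6.13 and 8.21 in Homo 1 to Homo 3. The 3 groups overlapped in fold, and the highest value was in Het 1. These folds are the authors' own values, each the summit pileup over its local background, and are not comparable between libraries as levels.

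The other complex I subunits that hold a flavin or an iron-sulfur cluster, Ndufv1, Ndufv2, Ndufs1 and Ndufs8, each had a gene-end peak in 8 or 9 libraries, a grouping made after the values were seen. Ndufv1, the NADH-binding flavoprotein, had the strongest peaks of complex I, with a median rank percentile of 90.1 and a fold of 6.14 to 11.9 over 8 libraries. It was missing in Het 3 and Homo 2, the 2 lists with the fewest regions. Ndufa13, an accessory subunit also studied as a cell death regulator, was called in 9 libraries and was missing only in Homo 1. Its region also lay within 1000 bp of an end of Tssk6, a testis kinase gene, so the peak cannot be assigned to Ndufa13 alone. The start sites of Ndufa13 and Tssk6 lie 164 bp apart. The peak summits lay before the Ndufa13 start site, at −1383 to −1146 bp, and not between these start sites.

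At the other end of complex I, Ndufa9 was called in WT 1 alone, with a fold of 6.56, and Ndufb3 in Homo 3 alone, with a fold of 6.46. WT 1 and Homo 3 were the 2 deepest libraries. Ndufa1, Ndufc2, Ndufa4l2, Ndufb4b and Ndufb4c were among the genes with no gene-end peak in any library. Ndufb4b and Ndufb4c are close copies of Ndufb4, and the treatment of reads that align to several places is not given in the sources used here, so their lack of peaks is uncertain. Ndufa4, counted here by its symbol but known to sit in complex IV, was called in WT 1, WT 3, Homo 1 and Homo 3.

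Complex II, succinate dehydrogenase, has 4 subunits, all encoded in the nucleus. The flavoprotein gene Sdha, the iron-sulfur gene Sdhb and the membrane anchor gene Sdhd had the same pattern, with a gene-end peak in every WT library, in Het 1, Het 2 and Homo 3, and in none of Het 3, Homo 1 and Homo 2. Sdhb had the strongest of these peaks, with a median rank percentile of 87.6 and a fold of 7.27 to 10.2 over 7 libraries. Sdhd had a median percentile of 24.9 and was still called in the same libraries. The second anchor gene, Sdhc, was called in WT 2 and Homo 3 only. Complex II alone of the 5 complexes had no gene called in Homo 1 or Homo 2, and it is also the smallest.

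Complex III passes electrons from ubiquinol to cytochrome c. All 8 of its genes had a gene-end peak in at least 1 library, and 7, 7, 6 and 7 had one in WT 1 to WT 4. The numbers were 6, 2 and 2 in Het 1 to Het 3 and 2, 1 and 8 in Homo 1 to Homo 3. The share of all genes was also lower in the Het libraries (10.5 to 24.1%) than in the WT libraries (28.0 to 35.8%). It was 15.9, 6.79 and 37.0% in Homo 1 to Homo 3. Uqcrq, a small subunit near the ubiquinone site, was called in 9 libraries and was missing in Het 3 only. The core protein genes Uqcrc1 and Uqcrc2 were called in every WT library and in Homo 3, with median rank percentiles of 75.1 and 84.0. Of the Het libraries, Uqcrc1 was called in all 3 and Uqcrc2 in Het 1. Uqcrfs1, the Rieske iron-sulfur protein gene, was called in 7 libraries, among them Homo 1. Uqcr11 and Uqcrb were called in 3 and 2 libraries, with median percentiles of 16.2 and 15.8.

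**Figure D3:**
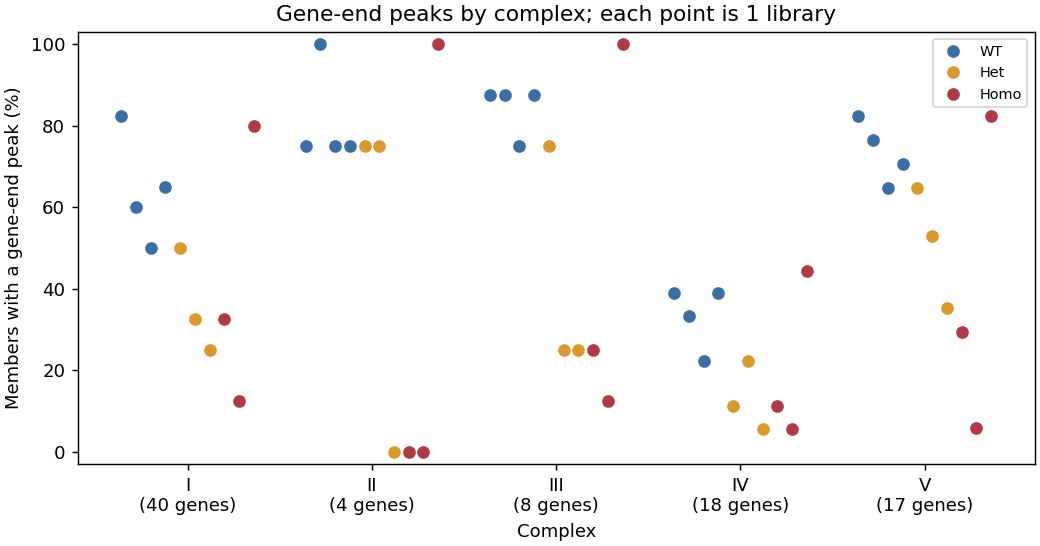
Percent of the genes of each complex with a gene-end peak, with 1 point per library in the order WT 1 to 4, Het 1 to 3 and Homo 1 to 3. The WT points of complex III lie between 75.0 and 87.5% and those of complex IV between 22.2 and 38.9%, and the highest Homo point of each complex is Homo 3.

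Complex IV, cytochrome c oxidase, had the fewest called genes for its size by group mean. Its mean share was 33.3% in WT, 13.0% in Het and 20.4% in Homo, against 32.6, 18.2 and 19.9% of all genes. In WT it thus lay near the share of all genes, while each other complex had a mean of 64.4% or more. Of 18 genes, 7, 6, 4 and 7 had a gene-end peak in WT 1 to WT 4, 2, 4 and 1 in Het 1 to Het 3, and 2, 1 and 8 in Homo 1 to Homo 3. No gene-end peak was found in any library at 9 of the 18 genes, against 6 of 40 genes in complex I, 1 of 17 in complex V and none in complexes II and III. Over all genes 57.4% had none in any library. Cox5a and Cox7a2, among the 9, had a peak at a start site further inside the gene, described with the start sites. Many complex IV subunits come in pairs, with 1 isoform made in most tissues and 1 known mainly from heart and muscle, lung or testis. Of the 9 genes without a gene-end peak, 6 are such restricted isoforms. The upstream sequences, 250 bases before the start site in RefSeq on GRCm38.p6, are shown for Cox6a1, Cox6b1 and Cox8a, which are made in most tissues, and for Cox8b and Cox7a1, known from heart and muscle. Capitals mark the NRF1 palindrome GCGCATGCGC, the ETS core CCGGAAG, the CCAAT box CCAAT and the GC box GGGCGG, read on both strands, so that an opposite-strand match shows its reverse complement.
Cox6a1, chr5:115348959-115349208, minus strand: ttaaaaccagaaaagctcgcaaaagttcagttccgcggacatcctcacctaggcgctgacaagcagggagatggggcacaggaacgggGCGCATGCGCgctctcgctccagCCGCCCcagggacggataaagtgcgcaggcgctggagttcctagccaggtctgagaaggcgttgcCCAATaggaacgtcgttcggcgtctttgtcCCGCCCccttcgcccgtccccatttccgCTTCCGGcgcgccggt
Cox6b1, chr7:30626115-30626364, minus strand: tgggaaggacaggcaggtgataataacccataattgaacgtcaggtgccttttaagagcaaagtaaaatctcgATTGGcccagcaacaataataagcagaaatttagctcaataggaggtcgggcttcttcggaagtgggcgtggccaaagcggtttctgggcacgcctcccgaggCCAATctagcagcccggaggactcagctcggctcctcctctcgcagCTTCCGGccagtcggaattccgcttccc
Cox8a, chr19:7217617-7217866, minus strand: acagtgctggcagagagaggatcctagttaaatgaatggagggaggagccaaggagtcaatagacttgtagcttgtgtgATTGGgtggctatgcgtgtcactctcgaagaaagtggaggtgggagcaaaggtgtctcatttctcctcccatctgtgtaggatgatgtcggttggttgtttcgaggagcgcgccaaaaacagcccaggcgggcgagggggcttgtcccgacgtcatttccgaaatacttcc
Cox8b, chr7:140900447-140900696, minus strand: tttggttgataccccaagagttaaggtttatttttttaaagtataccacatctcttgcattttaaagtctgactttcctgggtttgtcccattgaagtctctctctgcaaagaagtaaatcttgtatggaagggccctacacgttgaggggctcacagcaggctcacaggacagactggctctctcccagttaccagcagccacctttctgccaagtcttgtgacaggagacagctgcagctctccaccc
Cox7a1, chr7:30183921-30184170, plus strand: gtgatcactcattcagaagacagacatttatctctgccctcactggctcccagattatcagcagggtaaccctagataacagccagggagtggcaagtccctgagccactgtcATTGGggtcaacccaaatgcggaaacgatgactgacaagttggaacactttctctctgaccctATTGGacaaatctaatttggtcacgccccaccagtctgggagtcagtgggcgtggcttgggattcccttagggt

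Counting the start site as 0 and bases before it as negative, the NRF1 palindrome of Cox6a1 spans −162 to −153 and its ETS core −16 to −10. The Cox6b1 ETS core lies at −28 to −22. In Cox8a the letters ACTTCCGG, an ETS motif bound by GABPA, begin at −6, run across the start site to 1, and recur at 31 to 38, outside the printed stretch. The Cox8b stretch holds none of the marked motifs, and that of Cox7a1 holds 2 CCAAT boxes. These are matches of letters and not measured binding.

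The 7 isoform genes made in most tissues (Cox4i1, Cox6a1, Cox6b1, Cox7a2, Cox7b, Cox8a and Ndufa4) and the 8 tissue-restricted ones are set side by side as a description. Of the first, 5, 3, 4 and 3 had a gene-end peak in WT 1 to WT 4, 2, 1 and 1 in Het 1 to Het 3, and 3, 1 and 5 in Homo 1 to Homo 3. Of the restricted genes (Cox4i2, Cox6a2, Cox6b2, Cox7a1, Cox7b2, Cox8b, Cox8c and Ndufa4l2) none was called in 9 of the libraries, and Cox7a1 was called in Homo 3 alone. The Cox7a1 peak had a fold of 5.73 and a rank percentile of 13.8, and Homo 3 had the most regions of the 10 lists. No library of any group had more restricted than common isoforms called.

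Cox8a, which encodes the small subunit VIII, was called in all 10 libraries. Its fold was 6.42, 6.92, 8.46 and 7.19 in WT 1 to WT 4, 6.73, 8.55 and 4.59 in Het 1 to Het 3, and 6.02, 5.56 and 9.50 in Homo 1 to Homo 3. Both the highest and the second-lowest value were in Homo libraries, and the groups overlapped. The peak summit lay before the start site, at −187 to −71 bp, in WT 1, WT 4, Het 2, Het 3, Homo 2 and Homo 3, and after it, at 31 to 128 bp, in WT 2, WT 3, Het 1 and Homo 1, so both positions occurred in each group.

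Cox6a1, the common isoform of subunit VIa, was the 1 subunit gene that separated a pair of groups fully. A peak was called in all 4 WT libraries, in none of the 3 Het libraries, and in Homo 3 of the Homo libraries. Its fold was 5.52, 6.54, 7.44 and 6.91 in WT 1 to WT 4 and 8.21 in Homo 3, at rank percentiles of 19.3, 37.6, 72.1 and 43.0 in WT and 58.2 in Homo 3. The summits lay before the start site, at −128 to −31 bp, and the NRF1 palindrome in the printed sequence lay inside all 5 peaks. The separation gave an unadjusted p of 0.0286 (two-sided Fisher's exact test, 4 against 3 libraries) and an adjusted p of 0.533 over 8888 genes (Benjamini-Hochberg). Scaled to the lowest depth, the peak was called in 3 of 4 WT libraries, 0 of 3 Het libraries and Homo 3. Among the 1748 strongest regions of each list it was called in none.

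Complex V makes ATP and had the highest share of often-called genes: 8 of 17 had a gene-end peak in 8 or 9 libraries, compared with 12 of 40 genes in complex I in 8 or more. Of all genes 6.18% were called in 8 libraries, 4.42% in 9 and 2.27% in 10. The numbers were 14, 13, 11 and 12 in WT 1 to WT 4, 11, 9 and 6 in Het 1 to Het 3, and 5, 1 and 14 in Homo 1 to Homo 3. Het 1 equalled the lowest WT library, and Homo 1 and Homo 2 lay below all other libraries. The share of all genes was 28.0 to 35.8% in WT and 24.1, 19.9 and 10.5% in Het 1 to Het 3. It was 15.9, 6.79 and 37.0% in Homo 1 to Homo 3, so over all genes Het 3 lay below Homo 1. The catalytic genes Atp5b (beta subunit) and Atp5a1 (alpha subunit) were called in 9 and 8 libraries, and Atp5c1, the gamma subunit of the rotating shaft, in 8. Atp5g1 and Atp5g2, which encode the same mature c subunit of the membrane ring, had the strongest peaks of the whole set by median rank percentile, at 90.7 and 91.0 with Atp5g2 at a fold of 6.82 to 10.6. Both stayed among the 1748 strongest regions in 4 of 4 WT libraries and in 1 of 3 Homo libraries. Atp5g1 did so in 2 of 3 Het libraries and Atp5g2 in 3. The third c subunit gene, Atp5g3, was called at a gene end in WT 1 and Het 1 only. Atp5l, which encodes subunit g, was called in Homo 3 alone, and the delta subunit gene Atp5d in no library.

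Several genes without a gene-end peak had open chromatin at the start site itself. The gene table gives the outermost ends of a gene, and where RefSeq records a start site further in, the 1000 bp window misses it. Start sites were taken from the RefSeq promoter table, which had an entry for 70 of the 87 genes. Cox5a, a matrix-side subunit of complex IV, has its start site 3904 bp inside the gene's outer end. A peak lay there in 9 libraries, all but Homo 2, with a fold of 5.23, 6.93, 7.04 and 6.08 in WT 1 to WT 4, 8.26, 7.08 and 8.60 in Het 1 to Het 3, and 5.05 and 6.14 in Homo 1 and Homo 3. The 3 highest folds were those of the Het libraries, but folds are not comparable between libraries as levels. By rank percentile within its list, the WT 3 peak (70.4) lay above that of Het 2 (65.0). Cox7a2 (4612 bp inside) had such a peak in every WT library, in Het 1, Het 2 and Homo 3. Atp5d (3513 bp inside) had one in WT 1, WT 2, WT 4, Het 1, Het 2 and Homo 3. Atp5g3 was called at its start site in 5 libraries against 2 at a gene end. Ndufa13 went the other way, with 9 libraries at the gene end and 3 at its start site. With start sites counted as well, 74 of 87 genes had a peak in some library and 13 had none. The same count for all genes is not given here. By group mean, 66.1% of subunit genes in WT, 37.9% in Het and 38.7% in Homo had such a peak, against 35.0, 19.6 and 21.4% of all genes. Genes without a start-site entry, among them Cox4i2, Cox6a2, Cox8c, Ndufa4l2 and Ndufb4c, were searched at gene ends only.

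Homozygous and WT tumours were compared to ask how accessibility at these genes differs with loss of Arid1a. No subunit gene had a gene-end peak in every WT and no Homo library, and none in the reverse pattern. Over the 9150 genes tested the shares with these patterns were 0.306% and 0.0109%. Of 71 subunit genes tested, 56 (78.9%) were called in a larger share of the WT than of the Homo libraries, 9 in a smaller share and 6 in an equal one, and over all genes tested the first share was 78.0%. By Fisher's exact test no gene of the 9150 passed an adjusted p of 0.05 (smallest 0.582, Benjamini-Hochberg), and 29 genes, none of them a subunit gene, had an unadjusted p below it. The mean number of subunit genes with a peak was lower by 22.25 genes in Homo, less than the SD of the Homo libraries (30.3). The difference was −13.7 at equal depth, −11.6 with a −log10 q of at least 10 and −6.17 among the 1748 strongest regions of each list. At equal depth the mean share of all genes was also lower in Homo (15.1%) than in WT (23.5%).

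The Homo comparison turned on Homo 3. With it left out, 18 of 68 subunit genes (26.5%) were called in every WT and no Homo library, and so were 23.6% of all genes. The 18 were Ndufa2, Ndufa6, Ndufb4, Ndufb6 and Ndufb11 of complex I, Sdha, Sdhb and Sdhd of complex II, Uqcrc1, Uqcrc2, Uqcrh and Uqcr10 of complex III, Cox6a1 and Cox7c of complex IV, and Atp5g2, Atp5h, Atp5o and Atp5pb of complex V. The mean difference in the number of subunit genes with a peak was then −39.25. Of the 38 subunit genes called in every WT library, 18 were called in Homo 1 (47.4%, against 52.1% of the genes called in every WT library), 8 in Homo 2 (21.1% against 24.0%) and all 38 in Homo 3 (against 98.7%). These shares lay close to those of all genes called in every WT library.

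Heterozygous and WT tumours differed more evenly. Cox6a1 was the 1 subunit gene called in every WT and no Het library, out of 68 tested, and over the 8888 genes tested 5.34% had that pattern. No subunit gene had the reverse pattern (0.0113% of genes). A larger share of WT than of Het libraries was called at 52 of 68 genes (76.5%, against 78.2% of all genes), a smaller share at 4 and an equal one at 12. Without Het 1 the number of subunit genes called in every WT and no Het library was 9 (13.2%, against 14.0% of genes), without WT 3 it was 5 (7.35% against 9.38%), and without WT 2, Het 2 or Het 3 it was 2 (2.99%, 2.94% and 2.94% against 6.71%, 9.43% and 6.25%). In each of these cases the share of subunit genes was below that of all genes. Of the 38 genes called in every WT library, 35 were called in Het 1 (92.1%, against 79.9% of genes), 24 in Het 2 (63.2% against 68.4%) and 17 in Het 3 (44.7% against 37.4%). By Fisher's exact test no gene passed an adjusted p of 0.05, and 476 genes had an unadjusted p below it, Cox6a1 among them. As in the comparison of Homo and WT, 4 against 3 libraries left the adjusted test almost no room to call a gene. The mean number of subunit genes with a peak was 23.6 lower in Het, and at equal depth 10.3 lower, with 37, 44, 37 and 38 genes in WT 1 to WT 4 and 40, 31 and 15 in Het 1 to Het 3. The share of all genes at equal depth was 20.8, 27.2, 23.4 and 22.5% in WT 1 to WT 4. It was 23.7, 19.5 and 9.80% in Het 1 to Het 3. The log2 ratio of subunit to other genes then differed by −0.0451 (Het minus WT).

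Homo and Het tumours, which both carry Cre, showed no full separation at any subunit gene in either direction, where 0.0352% of 8533 genes were called in every Het and no Homo library and 0.352% in the reverse. Of 67 subunit genes tested, 19 were called in a larger share of Het libraries, 25 in a larger share of Homo libraries and 23 in an equal share. The first of these shares was 28.4%, against 26.8% of all genes tested. With 3 against 3 libraries the smallest p of Fisher's exact test is 0.1, so no gene could pass. Without Homo 3, 4 genes (Ndufa6, Uqcrc1, Atp5g2 and Atp5h) were called in every Het and no Homo library, 7.84% of those tested against 4.29% of all genes. Without Homo 2, Ndufa4 and Ndufb2 were called in every Homo and no Het library, 2.99% of those tested against 3.46% of all genes. The 3 genotype comparisons share libraries and are not independent of each other.

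Lists of equal length gave a different view of the Homo libraries. Among the 1748 strongest regions of each list by the deposited −log10 p, 14, 13, 16 and 15 subunit genes had a gene-end peak in WT 1 to WT 4, 17, 14 and 8 in Het 1 to Het 3, and 8, 8 and 9 in Homo 1 to Homo 3. The Homo and WT libraries did not overlap, and Homo 3 lay with the other Homo libraries. The share of all genes varied little, from 6.79 to 7.90%, and the log2 ratio of the share of subunit genes to that of other genes averaged 1.22 ± 0.11 over the WT libraries (SD, n = 4), 1.06 ± 0.52 over the Het libraries (SD, n = 3) and 0.51 ± 0.03 over the Homo libraries (SD, n = 3). The non-overlap depended on the ranking. Ranked by deposited fold, the numbers were 9, 14, 16 and 14 in WT, 20, 15 and 10 in Het and 9, 8 and 8 in Homo, and WT 1 equalled Homo 1. Among the 1000 strongest regions they were 6, 8, 6 and 9 in WT, 11, 9 and 3 in Het and 5, 3 and 6 in Homo, where the groups met at 6. Het 3, the shortest Het list, lay at or below the Homo values by −log10 p.

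The rank of the subunit genes' peaks also differed between libraries. The median rank percentile of the subunit genes' strongest peaks was 54.7 to 65.4 in the WT libraries, where the median of all genes with a gene-end peak was 52.7 to 56.2. It was 21.6 in Homo 2 and 28.8 in Het 3, against 45.5 and 47.8 over all genes, and 58.3 in Homo 3 against 57.0. In Het 1, Het 2 and Homo 1 it was 57.9, 54.1 and 50.8, so Homo 2 and Het 3 alone lay below their list's median for all genes by more than 5 percentage points. These were the lists with the fewest regions. The part of list length in this was not tested.

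Peaks at subunit genes were often shared with a neighbouring gene. Of the 71 genes with a gene-end peak, 33 had one that also lay within 1000 bp of another gene's end. In the 10 libraries 48.1 to 62.5% of called subunit genes shared their region, compared with 32.5 to 35.0% of all called genes. Start sites were available for both genes of 26 pairs, and 19 of these ran away from each other. Atp5c1 and Kin, a DNA-binding protein gene, start 102 bp apart, and their region had a median rank percentile of 87.0 over 8 libraries. Ndufa7 and the ribosomal protein gene Rps28 start 10 bp apart and were called in 4 libraries. Ndufb5 and the mitochondrial ribosomal protein gene Mrpl47 start 308 bp apart and were called in 9. Atp5pb and Wdr77 start 235 bp apart and were called in 6. The Ndufv3 region, called in 5, lay near an end of Wdr4, and the listed start sites of these genes are 7628 bp apart. Sdhd starts 52 bp from Timm8b, an import chaperone gene of mitochondria, and Atp5j starts 148 bp from Gabpa, which encodes an ETS factor known to act on respiratory chain genes. A peak in such a region cannot be assigned to either gene alone. Genes with a shared region were called in a median of 7 libraries and those without in 5. A gene counted as shared if its peak in any library was, so genes called in more libraries had more chances to count. Neither these medians nor the share of pairs that run apart is given here for all genes.

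Most peak summits lay close to a start site. In the WT libraries 82.1 to 88.6% of the subunit genes' peak summits lay within 250 bp of the RefSeq start site, compared with 78.0 to 80.1% for other genes. The share was also larger for subunit genes in the 3 Het libraries and Homo 3, but not in Homo 1 (72.2% against 72.7%) and Homo 2 (71.4% against 75.3%). The 300 bases from 250 before to 50 after the start were CpG-rich (at least 55% G or C and a CpG frequency of at least 0.6 of that expected) at 43 of 70 subunit genes (61.4%), compared with 41.7% of other genes. Among CpG-rich starts, 58.1% of subunit genes and 45.7% of other genes had a gene-end peak in every WT library. Among the remaining starts the shares were 29.6% (8 of 27) and 9.11%. The subunit genes had the larger share in both classes.

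**Figure D4:**
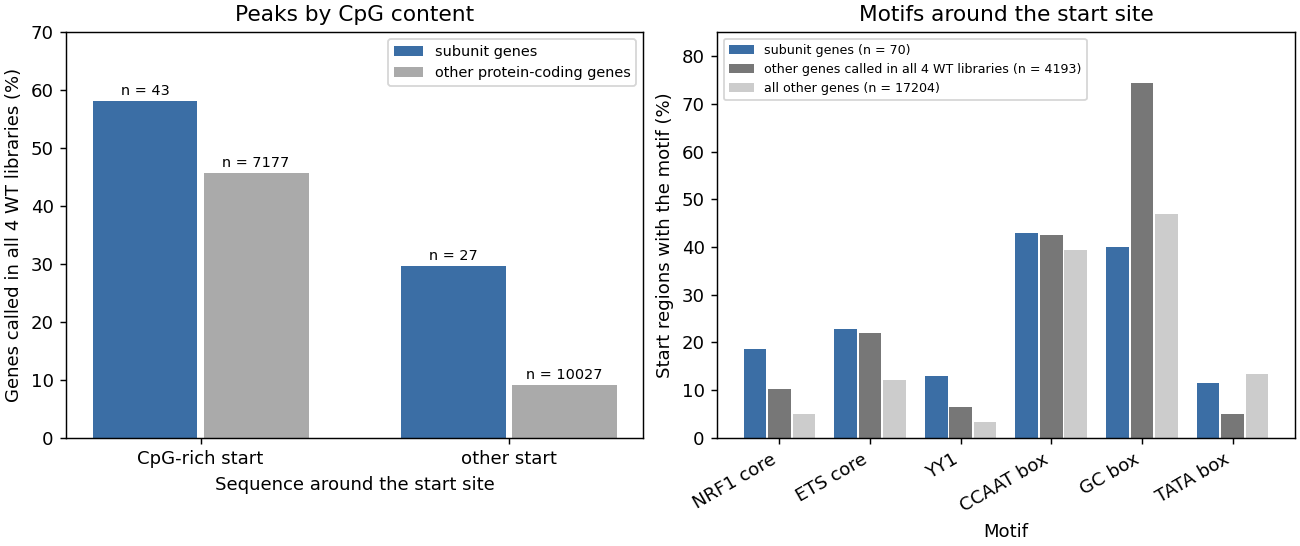
Left, percent of genes that all 4 WT lists call at a gene end, by CpG content of the start region, for subunit genes and other genes. Right, percent of start regions that hold each motif, where the NRF1 core was found at 18.6% of 70 subunit genes and 4.88% of other genes, and the GC box at 40.0 and 46.9%.

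Motif letters were searched on both strands of these 300 bases. The NRF1 core GCGCATG, which overlaps the palindrome, was found at 13 of 70 subunit genes (18.6%), compared with 4.88% of other genes and 10.2% of other genes called in every WT library. The palindrome was found at 7.14%, 1.31% and 3.03% of the same sets, and the YY1 letters AAGATGGC at 12.9%, 3.21% and 6.34%. The ETS core CCGGAAG, which overlaps ACTTCCGG on the opposite strand, was found at 22.9% of subunit genes and 12.0% of other genes, but at 22.0% of other genes called in every WT library. The GC box GGGCGG went the other way, at 40.0% of subunit genes against 46.9% of other genes and 74.5% of those called in every WT library. The CCAAT box (42.9% against 39.4%), the TATA box TATAAA (11.4% against 13.4%) and the E-box CACGTG (8.57% against 7.99%), a motif that MYC can bind, had close shares in subunit genes and other genes. Other genes called in every WT library held these letters at 42.6%, 4.98% and 11.5%. That set holds called genes only, whereas the 70 subunit genes include uncalled ones. The 33 subunit genes called in every WT library held the CCAAT box at 51.5%, the TATA box at 6.06% (2 genes) and the E-box at 9.09% (3 genes). They held the NRF1 core at 18.2%, the palindrome and the YY1 letters at 9.09% each, the ETS core at 27.3% and the GC box at 45.5%. These shares are descriptions of letters in a window, with no test.

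Genes that build and feed the respiratory chain were also counted, from lists of assembly factors, carriers, regulators and enzymes. Of 51 assembly factor genes, 69.6% had a gene-end peak in the mean WT library, 37.3% in Het and 37.9% in Homo. Over 106 genes for assembly factors, electron carriers, regulators and enzymes of the tricarboxylic acid cycle, 93 had a gene-end peak in some library, 55 in every WT library and 6 in all 10. Of all genes 42.6% had one in some library, 23.4% in every WT library and 2.27% in all 10. The mean share of the 106 genes was 70.3% in WT, 41.8% in Het and 42.8% in Homo, above the 62.4, 35.2 and 36.8% of the subunit genes, a difference that was not tested. For all genes the means were 32.6, 18.2 and 19.9%, so these too were lower in Het and Homo than in WT. By complex, assembly factors of complex I were called at a mean of 75.0% of 17 genes in WT and those of complex IV at 69.0% of 21 genes, compared with 64.4% of the 40 complex I subunits and 33.3% of the 18 complex IV subunits. The ATP synthase assembly factors went the other way, with a mean of 0.75 of 3 genes in WT against 73.5% of the 17 complex V subunits. Full separation occurred at 3 of the 106 genes, each with a peak in every WT and no Het library, a pattern that 5.34% of all genes tested had, so the number is below the background. They were Ndufaf4 (a complex I assembly factor), Coa6 (a copper-handling assembly factor of complex IV) and Twnk (the mitochondrial DNA helicase). Each was also called in Homo 3 and in neither of the other Homo libraries, the pattern of Cox6a1, with an adjusted p of 0.533 by Fisher's exact test against Het. Of the regulators, Nrf1 was called in all WT and 3 Het and 3 Homo libraries, Gabpa in all WT, 3 Het and 2 Homo libraries, and Ppargc1a in none.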

How the data were processed

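Chromatin accessibility lists of 10 libraries were analysed. The authors deposited 1 narrowPeak list per library on mm10. The submitters' processing notes name Bowtie2, MACS2 and deepTools, without versions. Of settings, read filters and read numbers nothing is given in the sources used here. Rows as deposited hold a score, a fold (a ratio of summit pileup to local background), a −log10 p and a −log10 q, all the authors' values per peak and used to rank and filter peaks of 1 list. Each library had its own peak calling. The smallest −log10 p in a list was 5.00 to 5.63.

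Depth was recovered as the lowest background found in 10 or more rows that, with a whole-number pileup, gave the deposited fold and −log10 p within 0.001. Lists at equal depth were scaled to 0.464 tags per 200 bp and kept at a Poisson −log10 p of at least 5. Groups came from the sample titles. Presence of a gene-end peak was tested gene by gene with a two-sided Fisher's exact test over all genes with a peak in at least 1 library compared, with Benjamini-Hochberg adjustment, and full separation of the groups was counted as a call. In ratios 0.5 was added to each number of genes. Gene ends, start sites and promoter sequences are from RefSeq (GRCm38.p6, the coordinates of mm10), and 159 of 160 entries of the gene lists were found. On simulated data it was checked only that genes planted as fully separated between WT and Homo were counted as such. The error rate of the test was not checked. The values of 1 gene of the set are not reported here by name.

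The members and lists were chosen with earlier results of these data known. Genes named are those fully separated in a comparison, those called in 0, 1 or all 10 libraries, isoform pairs, the separated genes of other lists and the 6 shared regions of highest rank, and other members were named after their values were seen. Alternatives were windows of 500 and 2500 bp, summits inside the window, a −log10 q of at least 10, equal depth, equal number, leaving out each library and a replicate block. Ranking by fold, the 1000 strongest regions and start sites were added after seeing the data. Analyses used Python 3.11.15, numpy 2.4.6, pandas 2.3.3 and SciPy 1.17.1.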

Additional observations from a re-analysis of the deposited data

Results flagged for a closer look

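In a check of 24 sets of library values by complex, 2 had a library that lay apart from equal others, by a criterion that chance meets in about 1 set in 20 for values without ties. These counts are tied, so that rate does not hold for them. Complex II had 4 genes called in WT 2 and 3 in each other WT library, a gap of 1.0 times the range. Complex III had 6 genes called in WT 3 and 7 in each other WT library, also a gap of 1.0 times the range. Each is a difference of 1 gene.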

How the results depend on the processing

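Of 194 values for 12 results under alternatives, 163 moved by less than the spread between libraries or, for counts, by less than 1.5 times. For the number of subunit genes in comparisons with Homo that spread was wide (20.2 genes against WT and 22.9 against Het). Within it, Homo minus WT (−22.25) went to −13.7 at equal depth, −11.6 with −log10 q of at least 10, −6.17 at equal number, −4.92 ranked by fold and −2.58 with 1000 regions. Homo minus Het (1.33) turned negative at equal depth (−3.33), at equal number (−4.67), ranked by fold (−6.67) and with 1000 regions (−3.0), and was 8.67 with −log10 q of at least 10. Depth limits what an uncalled peak means. The log2 ratio in Homo minus WT (−0.19 as deposited) was −0.72 at equal number, −0.57 ranked by fold and −0.54 with 1000 regions, and in Homo minus Het (−0.24) it was −0.56, −0.74 and −0.52, and −0.72 with −log10 q of at least 10. In Het minus WT (0.05) it was 0.65 with −log10 q of at least 10, −0.16 at equal number, −0.0451 at equal depth and 0.17 ranked by fold. The number of subunit genes in Het minus WT (−23.6) was −10.3 at equal depth, −1.5 at equal number, 1.75 ranked by fold and 0.417 with 1000 regions. Cox6a1 was the 1 gene called in every WT and no Het library, and the number was 0 with −log10 q of at least 10, at equal number, at equal depth, ranked by fold and with 1000 regions. Ranked by fold, 1 gene was called in every Het and no WT library and 1 in every Het and no Homo library, and at equal number 1 in every Homo and no Het library. The cause of these changes was not tested.

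Leaving out 1 library at a time, the number of subunit genes in Homo minus WT ran from −39.25 to −10.25, in Het minus WT from −29.25 to −17.75 and in Homo minus Het from −15.7 to 13.3. The log2 ratios ran from −0.33 to −0.07, 0.00025 to 0.12 and −0.38 to −0.12. Genes in every WT and no Homo library ran from 0 to 18 (18 without Homo 3), in every WT and no Het library from 1 to 9 (2 without WT 2, Het 2 or Het 3, 5 without WT 3, 9 without Het 1), in every Het and no Homo library from 0 to 4 and in every Homo and no Het library from 0 to 2.

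With the replicate number as a block, the number of subunit genes differed by −22.0 (Homo minus WT), −23.3 (Het minus WT) and 1.33 (Homo minus Het), and the log2 ratio by −0.20, 0.04 and −0.24. The libraries share only a number: over 8726 genes the correlation of deviations of same-numbered libraries was −0.08 to 0.02. The block changed no direction.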
